A study of Mus musculus with 10 samples.

Results

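Genes of fat synthesis, fatty acid desaturation and fat storage were read from RNA sequencing of whole liver in mice given napabucasin or its vehicle. The 34 genes were chosen by name from a count table of 54532 genes as genes of lipogenesis and the lipid droplet. Of these, 32 passed a filter on low counts and were tested, and Cidea and Mogat1 did not. Both groups were mice housed with free access to food and water, and no strain, sex or age is given in the sources used here. The napabucasin group (5 mice) received napabucasin (BBI608), a quinone drug known to block STAT3 signalling, at 20 mg per kg by gavage once a day for 7 days. The vehicle group (5 mice) received 1% sodium carboxymethyl cellulose by gavage for the same 7 days. The stated purpose was to find genes and pathways that the drug affects in the liver microenvironment.

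The liver turns surplus sugar into fat. Acetyl-CoA is made in the cytosol from citrate or acetate, carboxylated to malonyl-CoA and joined into palmitate by fatty acid synthase. Palmitate is then lengthened by elongases, given double bonds by desaturases and esterified to glycerol, and the triglyceride is kept in droplets coated with perilipins. The transcription factors SREBP-1c (gene Srebf1, driven by insulin) and ChREBP (gene Mlxipl, driven by glucose) are known to switch on the synthesis genes. Several droplet coat genes are known targets of the fatty acid sensors PPAR alpha and PPAR gamma.

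Library totals ran from 15364342 to 17369118 counts in napabucasin livers and from 14124484 to 17759967 counts in vehicle livers. The libraries carried the markers of liver: all 6 hepatocyte markers were tested, with Alb at 54060 to 96276 CPM (counts scaled to an equal library size) in napabucasin and 28363 to 124696 CPM in vehicle livers. Of 6 adipocyte markers, Adipoq, Lep, Retn, Plin1 and Cfd had at most 7 counts in all 5 napabucasin libraries together and at most 3 in all 5 vehicle libraries, so the defining markers of fat tissue were at or near 0. Lipe, the other one, is also used outside fat tissue and had 12.2 to 24.7 CPM in napabucasin and 7.25 to 19.8 CPM in vehicle livers. Summed markers of endothelial cells were at 153 to 246 CPM in napabucasin and 70.2 to 179.8 CPM in vehicle livers, and those of Kupffer cells and macrophages at 533 to 2032 CPM in napabucasin and 271 to 1445 CPM in vehicle livers. Stellate cell markers summed to 252 to 728 CPM in napabucasin and 233 to 306 CPM in vehicle livers. T cell markers summed to 12.2 to 25.4 CPM in napabucasin and 6.24 to 10.4 CPM in vehicle livers, the only 1 of these sums without overlap. All 7 endothelial, 7 macrophage, 5 stellate and 5 T cell markers had a positive log2 fold change, with 3, 2, 3 and 5 of them at an unadjusted edgeR p under 0.05. All 6 hepatocyte markers had a negative one (median -0.23, from -0.59 to -0.11), with 1 of them at that p. In these bulk libraries fewer cells of a type and less RNA per cell cannot be told apart. Counts in rRNA genes took their highest share in napabucasin replicates 1 and 2 and vehicle replicate 2 (0.912% to 1.09%, against 0.195% to 0.455% in the other 7 libraries). The share in mitochondrial genes was highest in napabucasin replicate 1 (19.9%) and vehicle replicate 1 (19.0%).

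The 3 stages of the pathway did not lie on one side. Genes of synthesis and their regulators were mostly higher in napabucasin livers, those of desaturation and elongation were lower with the exception of Scd2, and droplet genes were lower with the exception of Pnpla3. The other storage genes were mixed, with 2 of assembly higher and 4 lower, and 1 of uptake higher and 1 lower. None of these differences passed the threshold: edgeR's quasi-likelihood test called 0 of the 32 tested members at an adjusted p under 0.05, where it called 0 of 14244 genes (0%). At an unadjusted p under 0.05 it gave 9 members, against 15.2% of all genes tested. Srebf1, Mlxipl, Acacb and Fasn were the 4 on the higher side (9.34% of all genes), and Scd1, Fads2, Plin2, Plin5 and Pnpla2 were the 5 on the lower side (5.83% of all genes). DESeq2 called 1 member at an adjusted p under 0.05, Plin2, with 1.64% of all genes called. Limma-voom with quality weights called 0 members at that threshold, and 132 of all 14244 genes. Hepatocyte markers also lay on the lower side and those of 4 other cell types on the higher side, as given above, and their part in the members' values was not tested. In no member did the 2 groups' ranges of CPM stay apart, as they did for 1.21% of all genes on the higher side and 0.934% on the lower side.

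These counts moved when single libraries were left out. The 4 higher members came to 1 without vehicle replicate 2, 3 or 4 or napabucasin replicate 2, and to 2 without vehicle replicate 5 or napabucasin replicate 1 or 3. The 5 lower members came to 1 without vehicle replicate 5 or napabucasin replicate 3, to 2 without vehicle replicate 3 or napabucasin replicate 1, 2 or 4, and to 8 without napabucasin replicate 5. Mlxipl and Plin2 kept an unadjusted p under 0.05 in all 10 fits that left out 1 library, Plin5 in 6, Pnpla2 in 5, Fasn and Acacb in 4, and Srebf1, Scd1 and Fads2 in 3. Over all genes, 1331 were higher and 830 lower at that p (1407 and 361 with library size as the only scaling). Leaving out 1 library moved these counts too. They were 1401 and 1198, 1633 and 951, and 929 and 522 without vehicle replicates 1, 2 and 3. They were 1052 and 577, and 867 and 457, without vehicle replicates 4 and 5. Without napabucasin replicates 1, 2 and 3 they were 852 and 580, 940 and 458, and 1394 and 717. Without napabucasin replicates 4 and 5 they were 1631 and 1155, and 1550 and 908. Whether the members moved apart from all genes was not tested.

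Libraries of equal replicate number deviated together to a small extent (r of 0.154 to 0.278), and 6 of 10 correlated best with their own number. The labels do not say what an equal number stands for, so pairing is an assumption. Under it, the edgeR fit was also made with the replicate number as a block. This block fit gave 6 members on the higher side (11.8% of all genes), adding Lpin2 and Pnpla3. It gave 7 on the lower side (8.81% of all genes), adding Cidec and Elovl2, and 0 passed after adjustment. In all 5 pairs of equal number Srebf1, Mlxipl, Acacb and Fasn were higher in the napabucasin library (12.5% of the members, against 9.62% of all genes) and Elovl2, Dgat2, Plin2 and Pnpla2 were lower (12.5%, against 9.72%).

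**Figure D1:**
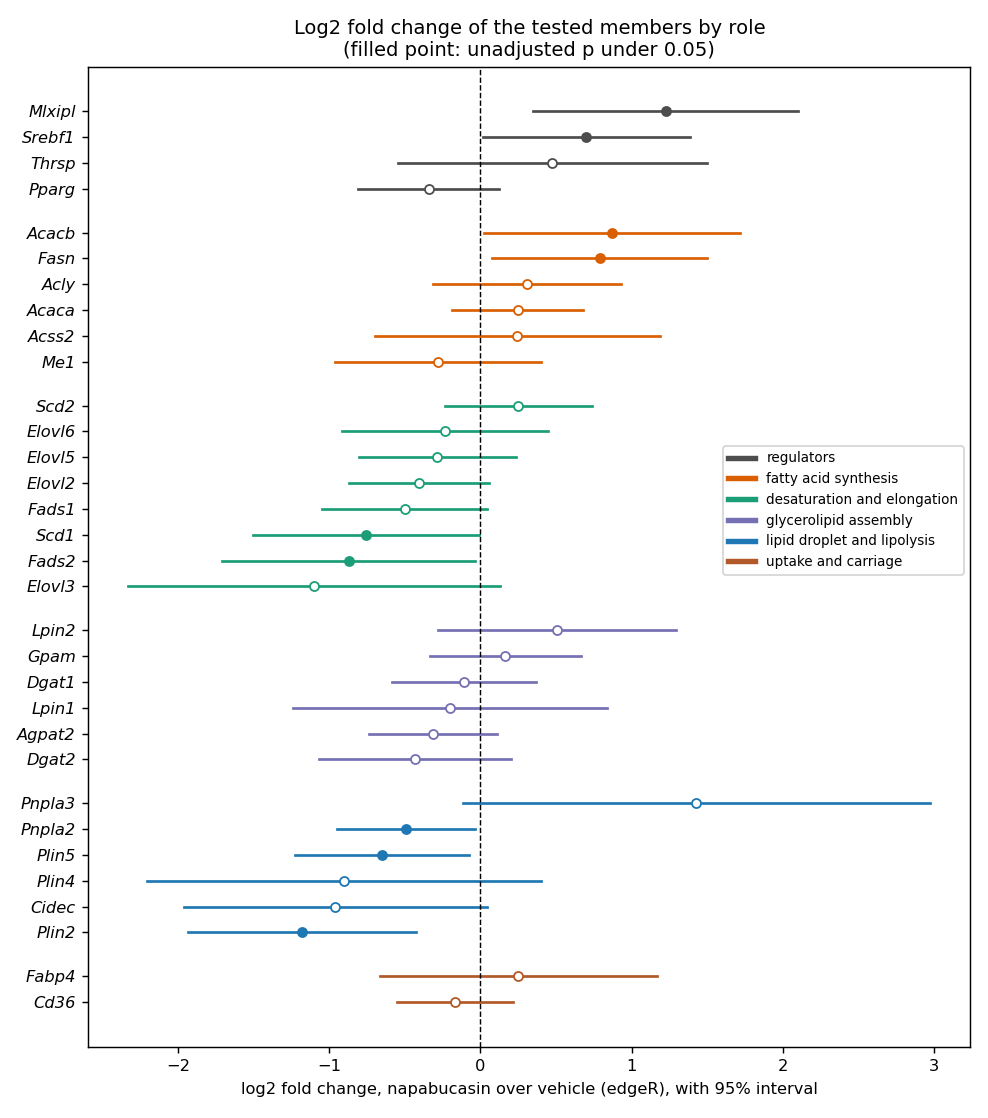
Log2 fold change (napabucasin over vehicle) of the 32 tested members, fitted by edgeR on 5 libraries a group and ordered by role. Points are estimates, bars are 95% intervals, and filled points mark an unadjusted p under 0.05, which 4 members have right of 0 and 5 left of it.

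The promoters of the 4 members with the smallest p are shown because 2 of them lay higher and 2 lower. They are the RefSeq windows of build GRCm38.p6, from 250 bases before to 50 bases after the start of transcription, read 5′ to 3′ on the gene's own strand. Where a gene has several starts in that set, the one nearest the start in the deposited annotation was taken. Capitals mark 4 motifs on either strand: the E-box CACGTG, the NF-Y box CCAAT, the nuclear receptor motif AGGTCA and the core of the sterol regulatory element, TCACNCCAC. Mlxipl lies at chr5:135089640-135089939 on the plus strand, Fasn at chr11:120824498-120824797, Plin2 at chr4:86670010-86670309 and Plin5 at chr17:56117499-56117798, the last 3 on the minus strand.
Mlxipl: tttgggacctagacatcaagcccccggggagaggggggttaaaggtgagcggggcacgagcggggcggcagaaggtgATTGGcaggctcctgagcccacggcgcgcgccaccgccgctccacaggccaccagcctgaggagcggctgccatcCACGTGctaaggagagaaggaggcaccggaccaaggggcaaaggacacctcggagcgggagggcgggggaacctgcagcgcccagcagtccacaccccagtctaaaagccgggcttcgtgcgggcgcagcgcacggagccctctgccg
Fasn: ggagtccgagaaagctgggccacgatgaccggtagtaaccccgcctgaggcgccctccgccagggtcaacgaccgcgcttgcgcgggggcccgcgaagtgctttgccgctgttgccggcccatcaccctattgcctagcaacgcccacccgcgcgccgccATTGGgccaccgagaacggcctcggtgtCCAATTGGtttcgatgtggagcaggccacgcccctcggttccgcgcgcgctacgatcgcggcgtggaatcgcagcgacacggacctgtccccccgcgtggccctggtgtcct
Plin2: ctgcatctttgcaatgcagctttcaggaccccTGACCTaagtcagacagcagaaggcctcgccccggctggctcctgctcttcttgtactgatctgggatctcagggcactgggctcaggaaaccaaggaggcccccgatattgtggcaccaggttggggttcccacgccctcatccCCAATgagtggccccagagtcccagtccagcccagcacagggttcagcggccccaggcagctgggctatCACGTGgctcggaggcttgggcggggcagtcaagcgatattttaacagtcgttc
Plin5: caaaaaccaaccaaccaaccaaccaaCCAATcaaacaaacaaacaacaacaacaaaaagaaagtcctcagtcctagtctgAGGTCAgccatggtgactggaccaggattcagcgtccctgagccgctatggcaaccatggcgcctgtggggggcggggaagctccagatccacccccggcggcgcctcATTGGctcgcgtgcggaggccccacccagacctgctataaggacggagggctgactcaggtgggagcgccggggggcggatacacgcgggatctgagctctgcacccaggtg

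The E-box, a sequence read by many factors of the family to which ChREBP belongs, was in the Mlxipl and Plin2 windows. It is not taken here as a ChREBP site. The NF-Y box, known to work beside sterol elements, was in all 4, and in Fasn a forward and a reverse copy overlap in 1 run of capitals. The receptor motif was in the Plin2 and Plin5 windows, and the sterol element core was in none of the 4. The window of Pnpla2, the member with the next smallest p, is not shown and held none of these motifs. Windows were matched for 26 of the 34 members. The E-box was in 4 of the 26 (15.4%, against 7.15% of all 32851 windows), the NF-Y box in 14 (53.8%, against 37.4%), the receptor motif in 9 (34.6%, against 16.3%) and the sterol element core in 0 (against 1.24%). A match is a run of letters and no evidence of binding, and a window without one says only that those letters are not in it. For Acaca, Cd36 and Acacb the window used lay 65766, 52905 and 18983 bases from the deposited start, and without these 3 the NF-Y box was in 12 of 23 (52.2%), the receptor motif in 7 (30.4%) and the E-box in 4 (17.4%). The members without a window were Scd1, Scd2, Fads1, Elovl3, Dgat1, Dgat2, Cidea and Fabp4.

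Both regulators of lipogenesis lay higher in napabucasin livers. Mlxipl (chromosome 5, 135089890 to 135138382, GRCm38), which encodes the glucose-responsive factor ChREBP, had 844, 416, 208, 211 and 698 CPM in napabucasin livers, against 361, 136, 164, 177 and 177 CPM in vehicle livers. Replicates 1 and 5 were the high napabucasin libraries, and vehicle replicate 1 was the only vehicle library that reached into the napabucasin range. The log2 fold change was 1.23 (SE 0.41, edgeR unadjusted p = 0.00962, adjusted p = 0.25), and it ran from 0.92 to 1.53 over the fits that left out 1 library.

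Srebf1 (chromosome 11, 60199089 to 60222581), which encodes the insulin-driven factor SREBP-1, had 442, 356, 284, 199 and 191 CPM in napabucasin livers, against 337, 147, 166, 137 and 119 CPM in vehicle livers. All 5 napabucasin libraries lay above 4 of the 5 vehicle libraries, and vehicle replicate 1 lay inside the napabucasin range. Srebf1 had a log2 fold change of 0.70 (SE 0.32, edgeR unadjusted p = 0.0458, adjusted p = 0.322). Srebf1 overlaps Rai1 on the opposite strand, which had 3088 counts in the 10 libraries where Srebf1 had 38913.

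Values of 2 clock genes, chosen with earlier results of these data known, are given beside these regulators. Arntl, a driver of the clock, had 49.9, 32.0, 18.5, 25.3 and 25.2 CPM in napabucasin livers, against 28.5, 10.2, 8.24, 11.6 and 11.7 CPM in vehicle livers. Dbp, a clock output factor, had 1.68, 2.33, 2.16, 0.641 and 1.92 CPM in napabucasin livers, against 1.54, 14.5, 25.8, 7.47 and 18.3 CPM in vehicle livers. Vehicle replicate 1 lay inside the napabucasin range for both genes, and the other 4 vehicle libraries lay outside it. Their part in the lipogenic values was not tested.

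The other members of this class had no unadjusted p under 0.05. Thrsp, a lipogenic gene of liver that responds to thyroid hormone and diet, had 255, 425, 367, 216 and 293 CPM in napabucasin livers, against 374, 34.7, 351, 107 and 252 CPM in vehicle livers. The vehicle libraries spread over 10-fold and enclosed the napabucasin range except at its top; the log2 fold change was 0.48 (SE 0.48, edgeR adjusted p = 0.623), or 0.21 without vehicle replicate 2, 0.31 without vehicle replicate 4 and 0.73 without vehicle replicate 1. Pparg, the fat storage regulator that is low in normal liver, had 4.61, 9.20, 7.69, 9.19 and 10.7 CPM in napabucasin livers, against 10.1, 11.0, 10.9, 10.3 and 10.1 CPM in vehicle livers. The 5 vehicle libraries lay close together, and 4 of the 5 napabucasin libraries lay below all of them. The log2 fold change was -0.34 (SE 0.22, edgeR adjusted p = 0.448), or -0.19 without napabucasin replicate 1.

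**Figure D2:**
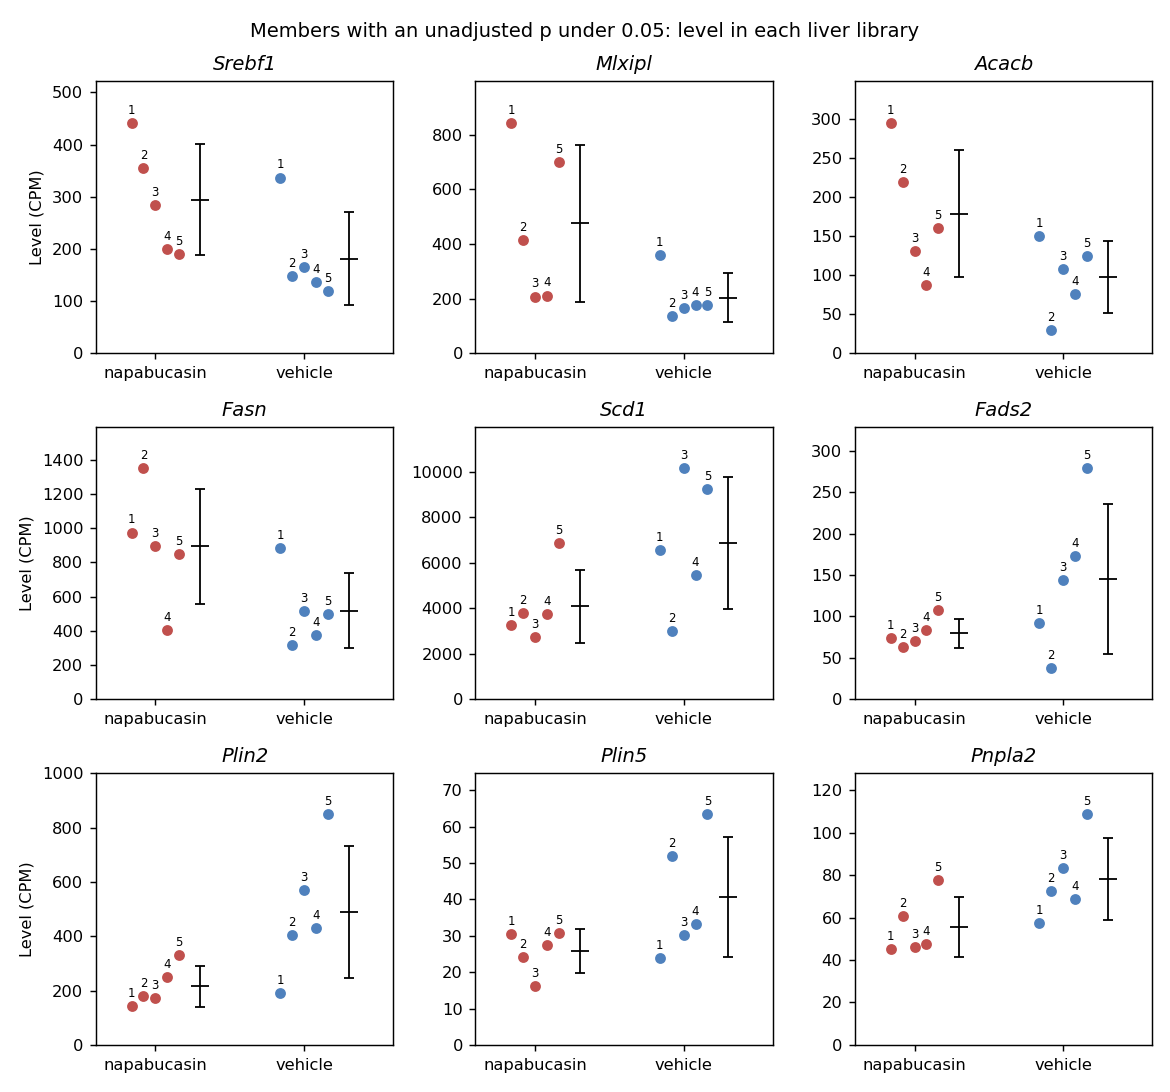
Level in CPM (vertical axis from 0) of the 9 members with an unadjusted p under 0.05, napabucasin libraries in red and vehicle libraries in blue, each point labelled with its replicate number; the bar is the mean ± SD of 5 libraries. Vehicle replicate 1 lies inside the napabucasin range for Srebf1 and Mlxipl, and vehicle replicate 5 is the highest library for Fads2, Plin2, Plin5 and Pnpla2.

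The fatty acid synthesis class held 6 enzymes, among them Acacb and the suppliers of acetyl-CoA and NADPH. Of these 6, 5 had a positive log2 fold change, and the median was 0.28, against 0.00098 over all genes tested. Only Fasn and Acacb had an unadjusted edgeR p under 0.05. Fasn (chromosome 11, 120805846 to 120824547), fatty acid synthase, had 975, 1351, 894, 404 and 848 CPM in napabucasin livers, against 883, 319, 514, 375 and 498 CPM in vehicle livers. Napabucasin replicate 4 lay among the vehicle libraries and vehicle replicate 1 among the napabucasin libraries. The means were 894 ± 338 CPM in napabucasin and 518 ± 220.1 CPM in vehicle livers (SD, n = 5 each). On the log2 scale Fasn differed by 0.79 (SE 0.33, edgeR unadjusted p = 0.0326, adjusted p = 0.309).

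Acacb (chromosome 5, 114146535 to 114250761) encodes the acetyl-CoA carboxylase at mitochondria, whose malonyl-CoA is known to hold back fatty acid entry. It had 296, 220.0, 131, 88.0 and 161 CPM in napabucasin livers, against 150.2, 29.9, 109, 76.5 and 125 CPM in vehicle livers. The 3 highest libraries were napabucasin ones, and the lowest was vehicle replicate 2. Acacb had a log2 fold change of 0.87 (SE 0.39, edgeR unadjusted p = 0.0443, adjusted p = 0.321). Its cytosolic counterpart Acaca, which makes the malonyl-CoA used for synthesis, measured 110.0 ± 26.9 CPM in napabucasin and 92.8 ± 12.4 CPM in vehicle livers (log2 fold change 0.25, SE 0.20).

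The enzymes that supply acetyl-CoA and NADPH were not past an unadjusted p of 0.05. ATP citrate lyase, Acly, measured 359 ± 109 CPM in napabucasin and 289.7 ± 112 CPM in vehicle livers (log2 fold change 0.31, SE 0.29). Acss2, which makes acetyl-CoA from acetate, measured 439.9 ± 161 CPM in napabucasin and 372 ± 229 CPM in vehicle livers (log2 fold change 0.24, SE 0.44), with vehicle replicate 2 far below the rest at 80.6 CPM and a log2 fold change of -0.014 without it. Acss2 overlaps Gss on the opposite strand, which had 11258 counts against 63059 for Acss2. Malic enzyme, Me1, a source of NADPH, was the one enzyme with a negative value, -0.28 (SE 0.32).

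The 3 libraries of highest rRNA share were napabucasin replicates 1 and 2 and vehicle replicate 2, the last of which was the lowest vehicle library for Mlxipl, Fasn and Acacb. Without these 3 the log2 fold changes were 0.77 for Mlxipl, 0.26 for Srebf1, 0.35 for Fasn and 0.15 for Acacb. In that fit 0 members were higher at an unadjusted p under 0.05, as were 762 of all 14436 genes tested. With all libraries 1331 of 14244 genes were higher at that p. On the lower side, 494 genes and 5 members had that p without these 3 libraries, against 830 genes and 5 members with all libraries. The 5 were Plin2 (log2 fold change -1.01), Scd1 (-0.81), Fads2 (-0.97), Fads1 and Elovl3. Plin5 (-0.60) and Pnpla2 (-0.47) no longer had it. Acly and Acss2 turned to -0.059 and -0.30 without these 3 libraries, and no other tested member changed sign. Without the 2 libraries of highest mitochondrial share, napabucasin replicate 1 and vehicle replicate 1, the log2 fold changes were 1.23 for Mlxipl, 0.86 for Srebf1, 1.04 for Fasn and 0.82 for Acacb.

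Desaturases and elongases lay on the other side: 7 of 8 had a negative log2 fold change, and the median was -0.45, against 0.00098 over all genes tested. Scd1 (chromosome 19, 44394451 to 44407709), the desaturase that turns stearate into oleate, was the most abundant member per length, with 832 ± 329 FPKM in napabucasin and 1418 ± 609 FPKM in vehicle livers (the authors' fragments scaled by gene length and depth, SD, n = 5 each). In CPM it had 3260.5, 3779, 2744, 3735 and 6880.2 in napabucasin livers, against 6585, 2985, 10159.7, 5445 and 9244 in vehicle livers. Only napabucasin replicate 5 lay above the vehicle group's second lowest library, and vehicle replicate 2 lay among the napabucasin libraries. The log2 fold change was -0.75 (SE 0.35, edgeR unadjusted p = 0.0481, adjusted p = 0.326), and it ran from -1.03 without napabucasin replicate 5 to -0.57 without vehicle replicate 3 (unadjusted p = 0.0101 and 0.132).

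Fads2 (chromosome 19, 10064164 to 10101503), the delta-6 desaturase that opens the path to long polyunsaturated fatty acids, had 73.3, 62.5, 69.8, 83.4 and 108 CPM in napabucasin livers, against 92.4, 37.7, 144, 173 and 279 CPM in vehicle livers. The napabucasin libraries lay close together and the vehicle libraries spread on both sides of them. Fads2 had a log2 fold change of -0.87 (SE 0.39, edgeR unadjusted p = 0.0425, adjusted p = 0.319), and -0.49 without vehicle replicate 5. Fads1, the delta-5 desaturase of the same path, measured 369 ± 82.6 CPM in napabucasin and 522 ± 147 CPM in vehicle livers (SD, n = 5 each). Its log2 fold change was -0.50 (SE 0.25, edgeR unadjusted p = 0.0689).

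Among the elongases, Elovl2 of the polyunsaturated path measured 476 ± 117 CPM in napabucasin and 632 ± 100.2 CPM in vehicle livers (log2 fold change -0.41, SE 0.21, edgeR unadjusted p = 0.0789, or 0.0418 with the replicate block). Elovl5, which lengthens polyunsaturated chains, had a log2 fold change of -0.28 (SE 0.24), and Elovl6, which lengthens palmitate to stearate, of -0.24 (SE 0.32), or 0.0085 without vehicle replicate 1. Elovl3 was near the floor at 1.07 ± 0.485 CPM in napabucasin and 2.32 ± 1.73 CPM in vehicle livers, and its value of -1.10 had an SE of 0.57. Scd2, the desaturase form better known from brain, was the exception, with 18.8 ± 5.76 CPM in napabucasin and 15.8 ± 3.21 CPM in vehicle livers (log2 fold change 0.25, SE 0.23). Scd1 and Scd2 are close paralogs, and reads of the far more abundant Scd1 could have been counted for Scd2.

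Fasn and Scd1, both known SREBP-1 targets, thus differed in direction within the same livers. The ratio of Fasn to Scd1 in FPKM was 0.132, 0.158, 0.144, 0.0477 and 0.0544 in napabucasin livers, against 0.0592, 0.0472, 0.0223, 0.0304 and 0.0238 in vehicle livers. Napabucasin replicates 1 to 3 lay above all vehicle libraries, and replicates 4 and 5 lay among the vehicle libraries. In all 5 pairs of equal replicate number the ratio was higher in the napabucasin library. The ratio was chosen after both genes' values were seen and is given as a description, with no test.

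**Figure D3:**
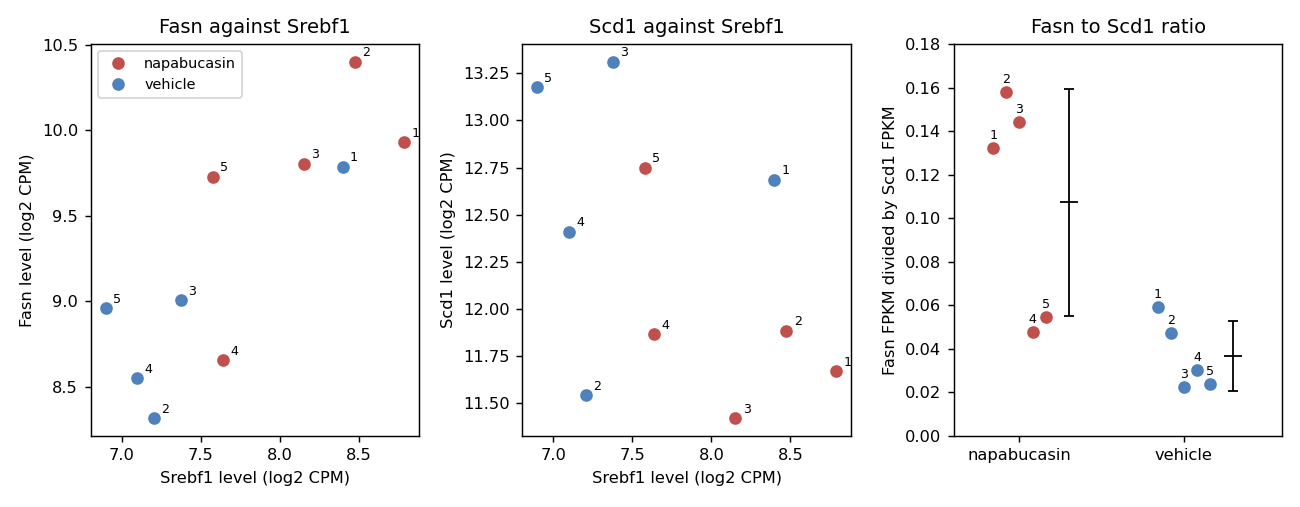
Fasn (left) and Scd1 (middle) against Srebf1 in log2 CPM, and the ratio of Fasn to Scd1 in FPKM (right, axis from 0, bar is mean ± SD), 1 point per library, 5 napabucasin in red and 5 vehicle in blue. Fasn tends to be higher in libraries where Srebf1 is higher, Scd1 does not, and the ratio exceeds 0.06 in 3 napabucasin libraries and in no vehicle library.

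Across libraries, Fasn followed Srebf1 most closely of the 8 SREBP-1 targets examined. After centring on the group means, Pearson's r between log2 CPM of Srebf1 and Fasn was 0.733 over 10 libraries (permutation p = 0.0163, adjusted p = 0.196 over 12 relations) and Spearman's rho was 0.794 (permutation p = 0.00885, adjusted p = 0.106). Without napabucasin replicate 1 and vehicle replicate 1, the 2 libraries farthest from the median of Srebf1, r was 0.623 (permutation p = 0.0951). For Scd1, r was -0.212 (permutation p = 0.553, adjusted p = 0.805) and rho -0.333 (permutation p = 0.347, adjusted p = 0.834), and r was -0.307 without the same 2 libraries. None of the 12 relations passed after adjustment by either measure, including the 4 of Pparg with Cidec, Plin4, Cd36 and Fabp4.

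Enzymes that assemble triglyceride showed the smallest differences of the classes with more than 2 members, with values from -0.43 to 0.50 on the log2 scale and 0 of 6 tested at an unadjusted p under 0.05 (1, Lpin2, with the replicate block). Agpat2 (chromosome 2, 26593057 to 26604417), which adds the second acyl chain to glycerol, had 128, 102, 178, 169.8 and 181 CPM in napabucasin livers, against 205, 167, 214, 169 and 187 CPM in vehicle livers. Napabucasin replicates 1 and 2 lay below the vehicle range and the other 3 inside it, and the log2 fold change was -0.31 (SE 0.20, edgeR adjusted p = 0.445), or -0.20 without napabucasin replicate 2. Agpat2 overlaps Egfl7 on the opposite strand, which had 2696 counts against 27630.

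Dgat2 (chromosome 7, 99153658 to 99182719), which completes triglyceride from newly made fat, had 172, 198, 302, 336 and 357 CPM in napabucasin livers, against 274, 209, 389.8, 373 and 595 CPM in vehicle livers. Napabucasin replicates 1 and 2 lay below the vehicle range, 3 libraries lay inside it, and the log2 fold change was -0.43 (SE 0.30, edgeR adjusted p = 0.478), or -0.19 without vehicle replicate 5. Its counterpart Dgat1 had a log2 fold change of -0.11 (SE 0.22), or 0.0080 without napabucasin replicate 3, and Gpam, which adds the first acyl chain, of 0.17 (SE 0.23). The phosphatidate phosphatases Lpin1 and Lpin2 had values of -0.20 (SE 0.48) and 0.50 (SE 0.37, edgeR unadjusted p = 0.19, or 0.0401 with the replicate block); Lpin1 turned to 0.13 with that block, to 0.064 without vehicle replicate 3 and to 0.18 without vehicle replicate 5. Mogat1, a monoacylglycerol acyltransferase known from fatty liver, had 10 counts in the 5 napabucasin libraries together and 24 in the 5 vehicle libraries, too few to test.

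Of the droplet coats among the members, Plin2 and Plin5 were lower in napabucasin livers at an unadjusted p under 0.05 and Plin4 was not. Plin3, a widely used coat from the related list, measured 35.7 ± 3.41 CPM in napabucasin and 35.9 ± 5.99 CPM in vehicle livers (log2 fold change -0.0084, SE 0.16). Plin2 had the smallest p of all members. Plin2 (chromosome 4, 86648386 to 86670060), the main droplet coat of hepatocytes, had 142, 181, 173, 250.3 and 333 CPM in napabucasin livers, against 192, 404, 569.6, 429 and 850.0 CPM in vehicle livers. Vehicle replicate 1 was the only vehicle library inside the napabucasin range, and the other 4 lay above all napabucasin libraries. The means were 216 ± 76.4 CPM in napabucasin and 489 ± 243 CPM in vehicle livers (SD, n = 5 each). On the log2 scale Plin2 differed by -1.18 (SE 0.35, 95% interval -1.94 to -0.43, edgeR unadjusted p = 0.00478, adjusted p = 0.228). DESeq2 gave a log2 fold change of -1.20 (adjusted p = 0.0468). Adjusted p ran from 0.0468 to 0.609 over the 23 alternatives, all with a negative fold change.

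Plin5 (chromosome 17, 56111601 to 56117596), a coat that ties droplets to mitochondria, had 30.5, 24.2, 16.2, 27.4 and 30.8 CPM in napabucasin livers, against 23.9, 51.8, 30.2, 33.3 and 63.4 CPM in vehicle livers. Vehicle replicates 2, 4 and 5 lay above every napabucasin library, and the log2 fold change was -0.65 (SE 0.27, edgeR unadjusted p = 0.0291, adjusted p = 0.30). Plin4, a coat typical of fat tissue, had 3.52 ± 1.97 CPM in napabucasin and 6.48 ± 7.15 CPM in vehicle livers (SD, n = 5 each), where vehicle replicate 2 alone was at 19.0 CPM, and the log2 fold change of -0.90 turned to 0.052 without it. Plin4 overlaps Hdgfl2 on the opposite strand, which had 7016 counts against 913, so its values are uncertain without strand information.

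Of the droplet fusion proteins, Cidec (also known as Fsp27) measured 1.37 ± 1.02 CPM in napabucasin and 2.63 ± 0.805 CPM in vehicle livers (SD, n = 5 each). Its log2 fold change was -0.96 (SE 0.47, edgeR unadjusted p = 0.0595, or 0.0449 with the replicate block). Cidea, which appears in liver mainly when fat accumulates, had 11 counts in the 5 napabucasin libraries together and 5 in the 5 vehicle libraries, too few to test.

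The 2 patatin-like members, related in sequence, had fold changes of opposite sign. Pnpla2 (chromosome 7, 141455198 to 141460743), adipose triglyceride lipase, which starts the breakdown of stored fat, had 45.2, 60.9, 45.9, 47.7 and 77.8 CPM in napabucasin livers, against 57.2, 72.4, 83.3, 68.9 and 109 CPM in vehicle livers. Replicates 1, 3 and 4 of the napabucasin group lay below every vehicle library. Pnpla2 had a log2 fold change of -0.49 (SE 0.21, edgeR unadjusted p = 0.0368, adjusted p = 0.314). Pnpla3, a droplet protein and known SREBP-1 target, measured 11.8 ± 5.94 CPM in napabucasin and 4.47 ± 5.57 CPM in vehicle livers (SD, n = 5 each). On the log2 scale Pnpla3 differed by 1.43 (SE 0.72, edgeR unadjusted p = 0.0676, or 0.0112 with the replicate block). Vehicle replicate 1 had 14.2 CPM of Pnpla3 and the other 4 vehicle libraries 0.0918 to 3.34 CPM, below all napabucasin libraries, which had 6.55 to 20.8 CPM.

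Neither gene of fatty acid uptake and carriage had an unadjusted p under 0.05 by edgeR with all libraries. Cd36, a fatty acid receptor also borne by endothelial cells and macrophages, had 28.8, 31.8, 33.9, 34.3 and 23.9 CPM in napabucasin livers, against 26.0, 31.9, 33.5, 34.6 and 45.6 CPM in vehicle livers (log2 fold change -0.17, 95% interval -0.55 to 0.21, edgeR adjusted p = 0.641, and -0.046 without vehicle replicate 5). Fabp4, a fatty acid carrier of fat cells, capillaries and macrophages, had 7.48, 8.06, 8.57, 8.28 and 10.5 CPM in napabucasin livers, against 17.9, 7.12, 2.06, 5.17 and 4.09 CPM in vehicle livers. The napabucasin libraries were close together and the vehicle libraries lay on both sides of them. The log2 fold change was 0.25 (SE 0.43, edgeR adjusted p = 0.782), and it was 0.87 without vehicle replicate 1 (edgeR unadjusted p = 0.0135) and 0.012 without vehicle replicate 3. Limma-voom with quality weights, also on all libraries, gave Fabp4 a log2 fold change of 0.93 (unadjusted p = 0.0114). The edgeR fit without the 2 libraries of highest mitochondrial share gave Fabp4 an unadjusted p of 0.0126. Summed endothelial and macrophage markers, given above, had higher but overlapping ranges in napabucasin livers.

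**Figure D4:**
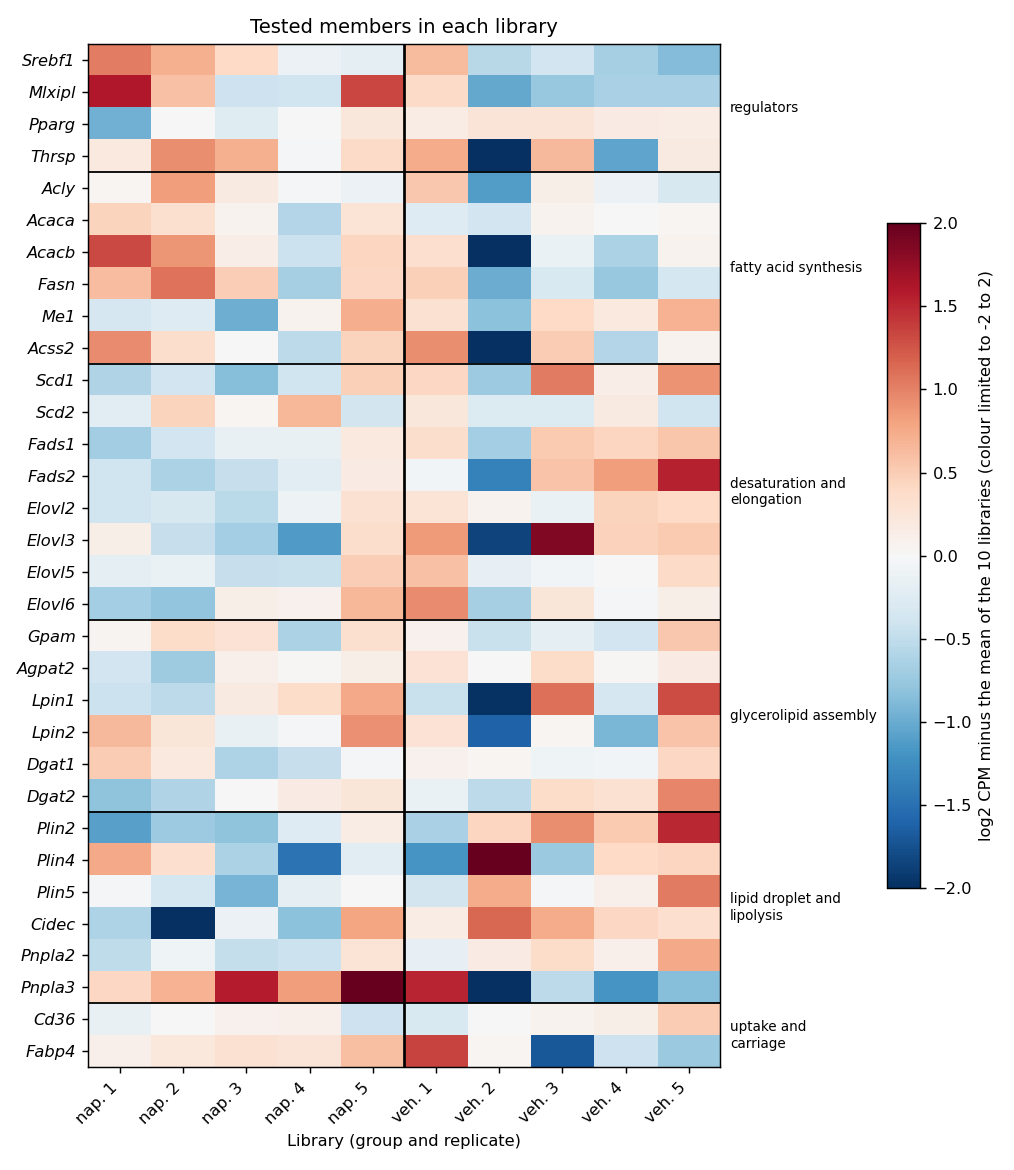
Log2 CPM of each of the 32 tested members minus its mean over the 10 libraries (red higher, blue lower, colour limited to -2 to 2), napabucasin libraries left and vehicle libraries right, in blocks by role. Vehicle replicate 2 is the lowest vehicle library in 20 of 32 members and napabucasin replicate 5 the highest napabucasin library in 19 of 32.

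Much of the variation lay within groups. Vehicle replicate 2 was the lowest of its group in 20 of 32 tested members, among them Thrsp, Acly, Acacb, Fasn, Acss2, Scd1 and Fads2, yet the highest in Plin4 and Cidec. Napabucasin replicate 5 was the highest of its group in 19 members, among them Scd1, Fads1, Fads2, Dgat2, Plin2 and Pnpla2. Vehicle replicates 1 and 5 were each the highest of their group in 12 members, replicate 1 in Srebf1, Mlxipl, Fasn and Pnpla3 and replicate 5 in Fads2, Dgat2, Plin2 and Pnpla2.

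A list of 69 related genes of the same pathway held 65 tested genes, of which 0 passed the threshold over all genes tested by edgeR, while 3 (4.62%, against 9.34% of all genes) lay higher and 12 (18.5%, against 5.83%) lay lower by the unadjusted threshold of 0.05. The groups' ranges stayed apart in 4 related genes, all lower (6.15%, against 0.934%), and DESeq2 called 4 (6.15%, against 1.64%). This list was chosen with earlier results of these data known, so its shares are a description and no test. Its median log2 fold change was -0.23, and that of the hepatocyte markers was also -0.23. The part of cell types in the list's values was not tested. The 6 related genes with the smallest p were all lower in napabucasin livers. Mgll, which frees the last fatty acid of a glyceride, had 48.6, 56.5, 76.0, 85.9 and 85.0 CPM in napabucasin livers, against 97.5, 172, 111, 131 and 184 CPM in vehicle livers. The groups did not overlap, and the log2 fold change was -0.98 (SE 0.23, edgeR unadjusted p = 0.000824, adjusted p = 0.182). Fitm2, a protein of droplet budding from the endoplasmic reticulum, measured 13.8 ± 2.61 CPM in napabucasin and 29.7 ± 13.8 CPM in vehicle livers (SD, n = 5 each), also without overlap, and had a log2 fold change of -1.10 (SE 0.27).

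Fads6, of the fatty acid desaturase family, measured 45.7 ± 4.80 CPM in napabucasin and 70.7 ± 9.39 CPM in vehicle livers (log2 fold change -0.63, SE 0.15), and Mlycd, which removes malonyl-CoA, 63.5 ± 13.4 CPM in napabucasin and 95.4 ± 9.78 CPM in vehicle livers (log2 fold change -0.59, SE 0.17). The groups did not overlap in either gene. Gpat3, an acyltransferase of the first assembly step, had a log2 fold change of -0.86 (SE 0.25), and Hacd3, a dehydratase of chain elongation, of -0.63 (SE 0.18). DESeq2 called Mgll, Fitm2, Fads6 and Hacd3 at an adjusted p under 0.05. The 3 genes on the higher side, named after their values were seen, were Insig1, the reticulum anchor of SREBP and itself a SREBP target (log2 fold change 0.88, SE 0.30), lipoprotein lipase Lpl (0.84, SE 0.29) and the acyl-CoA synthetase Acsl3 (0.76, SE 0.31).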

How the data were processed

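Liver RNA was measured in 10 mice, 5 per group, with polyadenylated RNA selected, per the labels' protocols. As deposited, counts are the authors' raw whole reads per gene. CASAVA, HISAT2 2.0.5 and featureCounts 1.5.0-p3 with build GRCm38 are named in the submitters' processing notes. No strand setting is given in the sources used here; genes that overlap on opposite strands were not separated. FPKM as deposited equals those counts over gene length and over 1 constant per library, which differs from the library's total. These values were used to compare levels between genes and in alternatives.

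The whole count table went through edgeR 4.0.16 (R 4.3.3): filterByExpr (14244 genes left), TMM scaling, the robust quasi-likelihood F test for treatment alone, and Benjamini-Hochberg adjustment at 0.05. SEs are those the F statistic implies, and CPM uses TMM library sizes. The labels call the libraries biological replicates, and their spread is what p-values measure. Depth is the 14124484 to 17759967 counts per library. Members in full are those with an unadjusted p under 0.05, the 2 smallest p and the highest mean FPKM of each role class, and Srebf1, Mlxipl and Pparg; of the related genes the 6 smallest p were named. Members, lists and this rule were chosen with earlier results of these data known. Correlations used 100000 permutations (SciPy 1.17.1).

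Alternatives were size-factor or no scaling, other filters, DESeq2 1.42.0, limma-voom with quality weights and limma on log2(FPKM + 1) or log2(FPKM + 0.1) (limma 3.58.1), a replicate block, protein-coding genes only, and each library left out. Leaving out the libraries of highest mitochondrial or rRNA share was added after the data were seen. What a shared replicate number stands for is not stated in the labels. Libraries with 1 number deviated together (r of 0.154 to 0.278, each over 0.1), and 6 of 10 correlated best with their own number, so the block is reported where it moves an unadjusted p across 0.05; other printed p-values do not use it. The edgeR procedure was also run on simulated counts, with means and dispersions taken from these libraries. The outcome of that run is not given here.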

Additional observations from a re-analysis of the deposited data

Results flagged for a closer look

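In 64 groups of 5 values (32 tested members in each group), 8 held a library whose gap to the nearest other exceeded 0.71 of the group's range. For independent, normally distributed values that limit flags about 1 group in 20, or 3.2 of 64. These groups hold untransformed CPM and share the same 10 libraries, so 3.2 is not their chance number and no excess is read from 8. In napabucasin livers, replicate 2 stood apart in Acly (549.9 CPM, against 284 to 347 CPM in the other 4). Napabucasin replicate 5 stood apart in Scd1 (6880.2 CPM, against 2744 to 3779 CPM) and in Elovl5 (882 CPM, against 454 to 570.1 CPM). In vehicle livers, replicate 1 stood apart in Srebf1 (337 CPM, against 119 to 166 CPM), in Mlxipl (361 CPM, against 136 to 177 CPM) and in Pnpla3 (14.2 CPM, against 0.0918 to 3.34 CPM). Vehicle replicate 2 stood apart in Fads1 (266 CPM, against 539 to 625 CPM) and in Plin4 (19.0 CPM, against 1.54 to 4.95 CPM).

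Without vehicle replicate 1 the log2 fold changes were 1.03 for Srebf1 and 1.53 for Mlxipl, against 0.70 and 1.23 with all libraries. The cause of these single values was not tested.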

How the results depend on the processing

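The log2 fold changes of the 15 members and 6 related genes named in full kept their sign under all 23 alternatives, and the lowest adjusted p of a member was 0.0468 (Plin2, DESeq2). Of the other 17 tested members, 6 changed sign under at least 1 alternative: Acly, Acss2, Elovl6, Lpin1, Dgat1 and Plin4. With all libraries and edgeR, 4 members lay higher and 5 members lay lower by an unadjusted p under 0.05, and 0 members and 0 genes passed after adjustment. With 1 library left out, members higher ran from 1 to 6, members lower from 1 to 8, genes past adjustment from 0 to 18, and all genes at an unadjusted p under 0.05 from 852 to 1633 higher and from 457 to 1198 lower. Members lower numbered 2 with library size only, 9 with DESeq2, 8 with limma-voom, and 3 with log2(FPKM + 1), with log2(FPKM + 0.1) and with log2(FPKM + 1) without a filter. Genes past adjustment numbered 1 with library size only, 19 with no filter on low counts, 233 with DESeq2 (1 of them a member), 132 with limma-voom and 1 with log2(FPKM + 0.1). All genes lower at that p numbered 361 with library size only, 1412 with no filter and 1564 with limma-voom, and all genes higher numbered 882 with log2(FPKM + 0.1). With the replicate block, 1675 genes were higher and 1255 lower, 6 members were higher and 7 lower at that p, and 0 passed after adjustment. Without the 2 libraries of highest mitochondrial share 7 genes passed after adjustment. Without the 3 of highest rRNA share 0 members were higher, and 762 genes were higher and 494 lower at that p. Without centring, 0 of 12 correlations passed by Pearson's r and 3 by Spearman's rho. Fewer samples are left where libraries are taken out; the cause of the other shifts was not tested. Members near the floor, such as Cidec, Plin4 and Elovl3, are limited by depth.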

Other observations

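Another gene of the pathway is given as values, chosen after they were seen. G0s2, the inhibitor of the lipase Pnpla2, measured 35.6 ± 8.33 CPM in napabucasin and 77.9 ± 48.8 CPM in vehicle livers (SD, n = 5 each), with vehicle replicate 2 at 159 CPM.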
